A study of Homo sapiens with 6 samples.

Results

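The G1 cyclins, the kinases CDK4 and CDK6 and the CDK inhibitors were examined in Huh7SR cells after fostamatinib. The genes were taken by symbol from the per-sample expression values: CCND1, CCND2, CCND3, CCNE1, CCNE2, CDK4, CDK6, CDKN1A, CDKN1B and CDKN2B. Of these 10 genes, 9 were found among the 16305 genes with values, and CCND2 was not analysed here. Huh7SR (named Huh7-R by the study) is a pool of cells selected from the human hepatocellular carcinoma line Huh7 by long exposure to sorafenib, and both groups share that history. RNA was sequenced from 3 samples of Huh7SR cells given fostamatinib, an inhibitor of the kinase SYK, at 2 µM for 24 h, and from 3 samples given DMSO, the vehicle, for the same time. The study did not detect SYK protein in Huh7 cells. The labels write 2 µM for the DMSO samples as well. Treatments were made in triplicate, but nothing states that the replicates came from separate cultures. The p-values therefore speak for these samples only, and they rest in part on variance estimates shared across all genes. As the model is a single cell line, one resistant pool, one dose and one time, the values describe that setting only.

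Cells pass from G1 into S phase when cyclin-dependent kinases phosphorylate the retinoblastoma protein and its relatives, the pocket proteins, and release E2F transcription factors. The D-type cyclins join CDK4 and CDK6 in response to growth factors, and the E-type cyclins, which are E2F targets themselves, join CDK2 later in G1. The CIP/KIP inhibitors p21 (CDKN1A) and p27 (CDKN1B) bind cyclin-CDK complexes of several kinds, while the INK4 inhibitors, such as p15 (CDKN2B), bind CDK4 and CDK6 alone. Hepatocytes in the adult liver rest outside the cycle and induce cyclin D1 when they re-enter it.

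The libraries held 13303451 to 15272737 reads on the genes kept by the authors. The chi-square per gene, which is 1 for pure counting error, was 1.65 to 3.75 within a group and 39.8 to 44.5 between the groups. The hepatocyte markers fit the label: ALB, AFP, APOA1, TTR and HNF4A had reads in every sample, and the summed level of the 10 hepatocyte markers was 5106 to 5442 CPM (reads per gene scaled to a common library size) in the DMSO samples and 6930 to 7334 CPM in the fostamatinib samples. All 10 rose with fostamatinib in the test described below, beside 23.3% of all genes tested. Among these markers, HNF4A rose by 1.02, APOA1 by 3.19, TTR by 0.55, AFP by 0.31 and ALB by 0.29 on the log2 scale. Of the 8 fibroblast markers, 5 had values, with a summed level of 297 to 306 CPM under DMSO and 308 to 312 CPM under fostamatinib. COL1A2 (log2 fold change 0.37) and PDGFRB (0.95) rose, LUM (-0.40) fell, and COL1A1 (0.18) did not pass the test. Of the 6 leukocyte markers only CD14 and LYZ had values, at a summed 9.83 to 11.2 CPM and 9.67 to 11.7 CPM, and neither passed the test (LYZ, log2 fold change 0.01). Of the 5 endothelial markers only PECAM1 had values, at 6.13 to 6.96 CPM and 8.76 to 9.93 CPM, and it rose by 0.51. The markers without values were not analysed here. These marker changes accompany every result below, and their part in it was not tested.

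After fostamatinib, RNA of the cyclin genes, CDK4 and CDKN2B (p15) was lower, and RNA of CDKN1B (p27) was slightly higher. The values are RNA levels, and protein was not measured in these samples. In a linear model across all genes (limma on log2 CPM, Benjamini-Hochberg adjustment), 8 of the 9 genes passed an adjusted p of 0.05, 6 of them lower and 2 higher after fostamatinib. The response was broad: 47.8% of all genes tested passed in either direction, 24.5% lower and 23.3% higher. CCND1 and CCNE2 fell by more than 2-fold, and no other of the 9 genes moved that far; of all genes, 3.29% fell and 7.13% moved in either direction by more than 2-fold. The samples of both groups did not overlap for 7 of the 9 genes, beside 54.1% of all genes. The median log2 fold change was -0.53 over the 9 genes and 0.00 over all genes. In bulk RNA, fewer cells of a kind and less RNA per cell cannot be told apart.

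**Figure D1:**
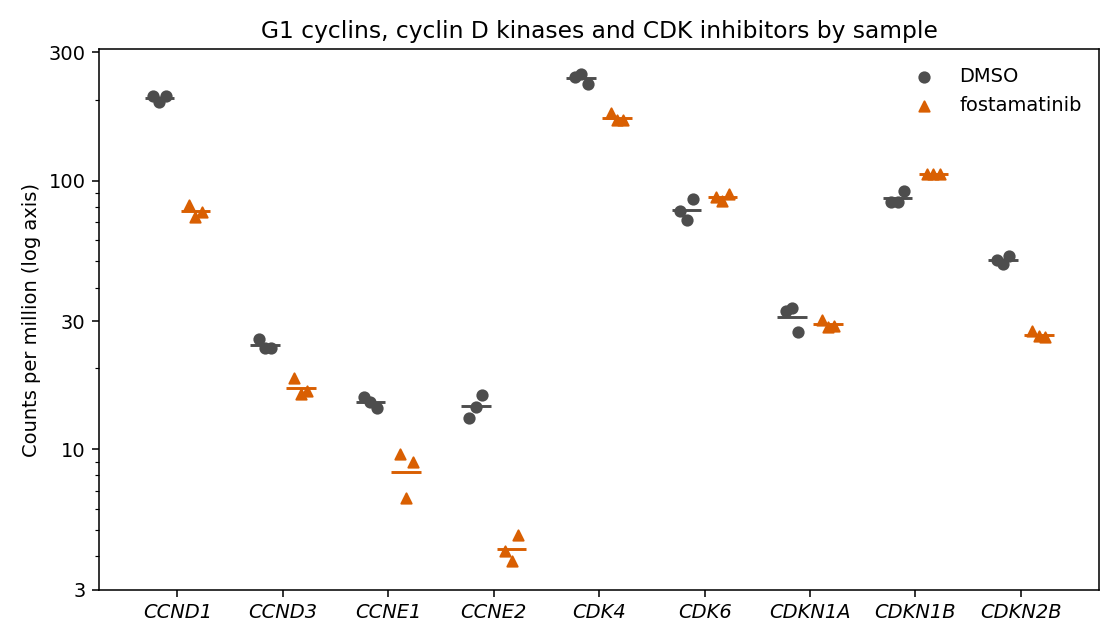
Level of each of the 9 genes in each sample, in CPM on a log axis; circles are the 3 DMSO samples, triangles the 3 fostamatinib samples, and the line is the group mean of the log2 values. CCND1, CCND3, CCNE1, CCNE2, CDK4 and CDKN2B sit lower in all fostamatinib samples, CDKN1B sits higher, and the groups overlap for CDK6 and CDKN1A; heights of different genes are not corrected for transcript length.

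Among the D-type cyclins, CCND1 (ENSG00000110092, chr11:69455924-69469242, + strand, GRCh37) encodes cyclin D1, the growth-factor-induced partner of CDK4 and CDK6. Its level was 206, 195 and 207 CPM in the DMSO samples and 81.2, 73.3 and 76.3 CPM in the fostamatinib samples, from 2843 to 3078 reads and 1011 to 1116 reads. All fostamatinib samples lay below all DMSO samples, and the spread within each group was small. CCND1 fell to 37.9% of its DMSO level (95% interval 35.5 to 40.5%), a log2 fold change of -1.40 (SE 0.047, n = 3 per group, limma adjusted p = 2.35e-23). Counted from the largest fall, it ranked 324 of the 16305 genes.

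CCND3 (ENSG00000112576, chr6:41902672-42018095, - strand, GRCh37) encodes cyclin D3, another partner of the same kinases. It measured 25.7, 23.8 and 23.8 CPM under DMSO and 18.4, 16.1 and 16.4 CPM under fostamatinib. The groups did not overlap, but the gap was narrower than for CCND1. CCND3 fell to 69.4% of its DMSO level (log2 fold change -0.53, 95% interval -0.69 to -0.36, SE 0.082, limma adjusted p = 1.74e-06). Within each sample, the level of CCND1 per kilobase of transcript was 3.85, 3.93 and 4.16 times that of CCND3 under DMSO and 2.11, 2.18 and 2.22 times under fostamatinib. The fall of CCND1 thus exceeded that of CCND3 by 0.87 on the log2 scale, and the ratios of the groups did not overlap. This ratio, like the others below, is a description of these samples and was given no test. The change of a ratio within samples does not depend on how the libraries were scaled or on the transcript lengths.

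CDK4 (ENSG00000135446, chr12:58141510-58149796, - strand, GRCh37) and CDK6 (ENSG00000105810, chr7:92234235-92465887, - strand, GRCh37) encode the kinases that bind the D-type cyclins. CDK4 fell, while CDK6 rose slightly between groups that overlapped. CDK4 measured 243, 250 and 229 CPM under DMSO and 178, 168 and 168 CPM under fostamatinib. No fostamatinib sample reached the lowest DMSO sample. The level fell to 71.3% (log2 fold change -0.49, 95% interval -0.57 to -0.40, SE 0.042, limma adjusted p = 5.33e-12).

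CDK6 measured 77.2, 71.1 and 85.6 CPM under DMSO and 86.6, 84.3 and 89.1 CPM under fostamatinib. DMSO sample 3 lay among the fostamatinib samples, so the groups overlapped. The rise was small, with a log2 fold change of 0.16 (95% interval 0.04 to 0.27, SE 0.056, limma adjusted p = 0.0194). It did not pass without DMSO sample 1 (0.15, limma adjusted p = 0.0562), without DMSO sample 2 (0.09, limma adjusted p = 0.190), without fostamatinib sample 3 (0.14, limma adjusted p = 0.0945) or with a variance prior that ignored the expression level (0.16, limma adjusted p = 0.180). The ratio of CDK4 to CDK6 per kilobase was 19.7, 22 and 16.7 under DMSO and 12.9, 12.5 and 11.8 under fostamatinib. CDK4 therefore remained the more abundant of the pair by over 10-fold per kilobase in every sample, with a ratio lower by 0.64 on the log2 scale after fostamatinib. With the length of all annotated exons in place of that of the main transcript, the ratio was 10.6 to 13.9 under DMSO and 7.46 to 8.14 under fostamatinib.

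The promoter windows searched cover 7 of these genes, without CCND1, CCND2 and CCNE2. The CDK4 promoter is shown because it alone among them held the E-box CACGTG, the site bound by MYC-MAX and related factors. The motif reads the same on both strands. The window covers the 250 bases before the annotated start, chr12:57752311-57752560 (- strand, RefSeq, GRCh38.p14, a different build from that of the gene coordinates above), and the 3 matches are in capitals.
CDK4: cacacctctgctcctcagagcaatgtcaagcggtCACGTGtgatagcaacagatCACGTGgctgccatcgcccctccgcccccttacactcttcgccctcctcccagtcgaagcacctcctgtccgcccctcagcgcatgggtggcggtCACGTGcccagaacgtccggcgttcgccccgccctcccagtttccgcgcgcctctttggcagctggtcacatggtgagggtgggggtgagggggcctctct
The matches began 216, 196 and 101 bases before the start. Of all 35116 promoters of the same length in the table, 6.34% held the motif.

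Both genes of E-type cyclins fell. CCNE1 (ENSG00000105173, chr19:30302898-30315219, + strand, GRCh37), cyclin E1, measured 15.7, 15.0 and 14.3 CPM under DMSO and 9.63, 6.56 and 8.94 CPM under fostamatinib. The fostamatinib samples spread widely, with sample 2 the lowest, yet all were below the DMSO samples. Their SD was 0.29 on the log2 scale, beside a counting error of 0.13 at a mean of 114 reads. CCNE1 fell to 55.1% of its DMSO level (log2 fold change -0.86, 95% interval -1.10 to -0.62, SE 0.119, limma adjusted p = 1.87e-07). Leaving out each sample in turn moved the log2 fold change between -0.97 and -0.69, the latter without fostamatinib sample 2.

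The CCNE1 promoter is shown because it held more copies of GGGCGG, the core of the site bound by SP1, than any other window searched. The 250 bases before its start (chr19:29811741-29811990, + strand, RefSeq, GRCh38.p14) are 81.2% G or C, and capitals mark the 7 matches on either strand, written as CCGCCC where the motif lies on the opposite strand.
CCNE1: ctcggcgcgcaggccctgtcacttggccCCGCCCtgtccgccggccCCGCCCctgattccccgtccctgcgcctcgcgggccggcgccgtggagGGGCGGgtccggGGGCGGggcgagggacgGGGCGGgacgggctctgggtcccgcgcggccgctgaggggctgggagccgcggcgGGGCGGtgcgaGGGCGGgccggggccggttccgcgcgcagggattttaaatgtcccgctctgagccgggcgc
GGGCGG is common, and 42.6% of all promoters of this length held it. CCND1, CCND2 and CCNE2 are named without a promoter.

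CCNE2 (ENSG00000175305, chr8:95891998-95908906, - strand, GRCh37), cyclin E2, measured 13.1, 14.4 and 16.0 CPM under DMSO and 4.18, 3.82 and 4.79 CPM under fostamatinib, the latter from 54 to 63 reads. It showed the lowest ratio of fostamatinib to DMSO among the 9 genes, at 29.4% (log2 fold change -1.77, 95% interval -2.03 to -1.50, SE 0.129, limma adjusted p = 6.61e-14). It ranked 172 from the largest fall. The ratio of CCNE1 to CCNE2 per kilobase was 1.64, 1.43 and 1.22 under DMSO and 3.15, 2.35 and 2.55 under fostamatinib. The groups did not overlap, and the ratio was higher by 0.91 on the log2 scale after fostamatinib.

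**Figure D2:**
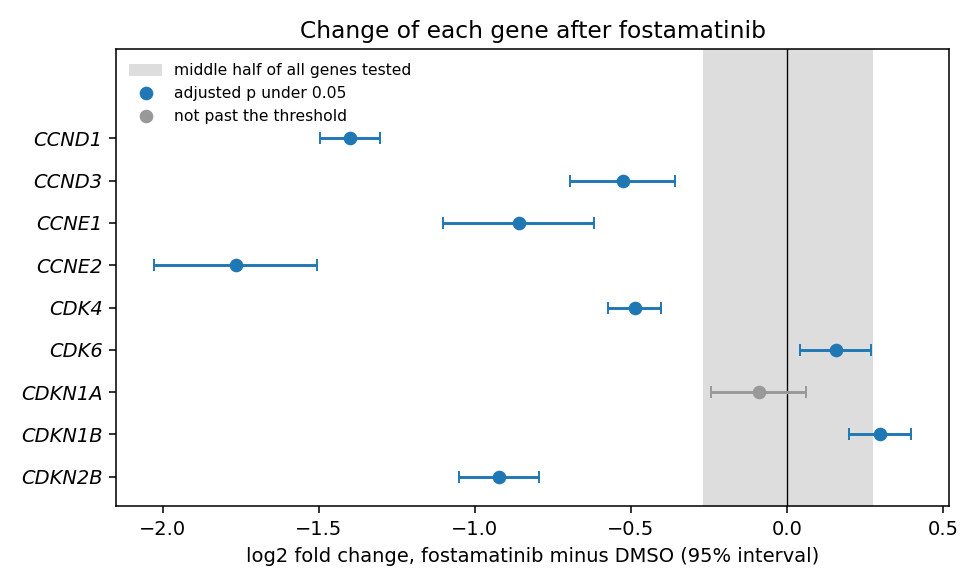
Change of each of the 9 genes, as the log2 fold change of fostamatinib over DMSO with its 95% interval from limma; blue points passed an adjusted p of 0.05, the grey point did not, and the grey band spans the lower to the upper quartile of all genes tested, from -0.27 to 0.27. CCNE2 and CCND1 lie farthest to the left, at -1.77 and -1.40, and CDKN1B at 0.30 is the only gene whose value lies to the right of the band.

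The inhibitors moved in different directions. CDKN1A (ENSG00000124762, chr6:36644237-36655114, + strand, GRCh37) encodes p21, a p53 target that binds cyclin-CDK complexes and PCNA. It measured 32.7, 33.6 and 27.3 CPM under DMSO and 30.3, 28.4 and 28.8 CPM under fostamatinib. DMSO sample 3 lay below all fostamatinib samples and the other DMSO samples above them. The log2 fold change was -0.09 (95% interval -0.24 to 0.06, SE 0.075, limma adjusted p = 0.340), which places the level at 84.5 to 104% of that under DMSO. Without DMSO sample 3, the value was -0.18 (limma adjusted p = 0.0308).

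CDKN1B (ENSG00000111276, chr12:12838432-12875303, + strand, GRCh37) encodes p27, an inhibitor known to accumulate in resting cells and to be degraded on entry into S phase. It measured 83.0, 83.3 and 91.6 CPM under DMSO and 106, 106 and 105 CPM under fostamatinib. All fostamatinib samples lay above all DMSO samples. CDKN1B rose to 123% of its DMSO level (95% interval 115 to 132%, log2 fold change 0.30, SE 0.049, limma adjusted p = 4.20e-06). The rise did not pass a test against a 1.2-fold change (limma treat, adjusted p = 0.651).

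CDKN2B (ENSG00000147883, chr9:22002902-22009304, - strand, GRCh37) encodes p15, known as a gene induced by TGF-beta in epithelial cells. It measured 50.7, 48.8 and 52.3 CPM under DMSO and 27.5, 26.5 and 26.1 CPM under fostamatinib. The spread within the groups was small against the gap between them. CDKN2B fell to 52.8% of its DMSO level (95% interval 48.2 to 57.7%, log2 fold change -0.92, SE 0.064, limma adjusted p = 1.55e-14). CDKN2B and its neighbour CDKN2A resemble each other in part of their coding sequence, and how reads matching both were counted is not given in the sources used here.

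The promoters of CDKN1B and CDKN2B are shown as a pair because these inhibitors moved in opposite directions. Both windows hold the 250 bases before the start (RefSeq, GRCh38.p14; CDKN1B at chr12:12717118-12717367, + strand, and CDKN2B at chr9:22009306-22009555, - strand), with GGGCGG on either strand in capitals.
CDKN1B: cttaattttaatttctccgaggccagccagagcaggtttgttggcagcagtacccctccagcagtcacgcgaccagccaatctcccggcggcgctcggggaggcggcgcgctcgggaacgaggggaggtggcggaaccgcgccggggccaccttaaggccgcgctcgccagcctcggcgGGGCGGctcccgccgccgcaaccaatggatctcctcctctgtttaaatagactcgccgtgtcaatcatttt
CDKN2B: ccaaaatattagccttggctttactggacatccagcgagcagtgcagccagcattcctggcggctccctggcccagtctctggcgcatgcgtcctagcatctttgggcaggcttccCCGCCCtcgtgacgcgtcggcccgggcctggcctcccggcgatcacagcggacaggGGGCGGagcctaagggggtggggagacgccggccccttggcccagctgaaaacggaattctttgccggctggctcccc
CDKN1B held 1 match and CDKN2B held 2. CDKN1A held 4. Of the 10 windows of the 7 genes searched, 8 held at least 1. The exceptions were 1 of the 3 windows of CCND3 and 1 of the 2 windows of CDK6. None of the 10 windows held the E2F motif TTTNNCGC, the AP-1 motif TGANTCA, the FOXO motif TGTTTAC or the cyclic AMP response element TGACGTCA on either strand. Over all 35116 promoters the shares were 5.92% for TTTNNCGC, 6.57% for TGANTCA, 2.98% for TGTTTAC and 1.65% for TGACGTCA. A missing match says only that these letters do not stand in these windows. CCND1, CCND2 and CCNE2 were not searched.

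The levels were ordered per kilobase of the main transcript, so that genes could be set beside each other. Under DMSO, CDK4 was the highest at 129 ± 5.64 CPM per kilobase (SD, n = 3). It was followed by CCND1 at 47.9 ± 1.56, CDKN1B at 35.7 ± 2.02, CDKN1A at 14.7 ± 1.62 and CDKN2B at 13.1 ± 0.459 CPM per kilobase. CCND3 at 12 ± 0.537, CCNE1 at 7.68 ± 0.361, CDK6 at 6.68 ± 0.627 and CCNE2 at 5.42 ± 0.540 CPM per kilobase stood last. The pairs of neighbours, CDKN1A with CDKN2B, CDKN2B with CCND3 and CCNE1 with CDK6, overlapped in their samples. After fostamatinib, CDK4 was still the highest at 92.0 ± 3.12 CPM per kilobase and CCNE2 the lowest at 1.59 ± 0.183. CDKN1B, at 43.8 ± 0.0672, now stood above CCND1, at 18.2 ± 0.938 CPM per kilobase. CDKN1A at 13.8 ± 0.479, CCND3 at 8.37 ± 0.603, CDK6 at 7.43 ± 0.205, CDKN2B at 6.93 ± 0.193 and CCNE1 at 4.29 ± 0.825 CPM per kilobase lay between CCND1 and CCNE2. No neighbours in this order overlapped in their samples. With the length of all annotated exons, CDK4 stayed the highest and CCNE2 the lowest in both groups, while CDKN2B stood at rank 3 and CDKN1B at rank 5 under DMSO.

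The ratio of CDKN1B to CCND1, an inhibitor to a cyclin, was the widest change among the pairs compared. It measured 0.707, 0.750 and 0.777 under DMSO and 2.29, 2.54 and 2.43 under fostamatinib, which is 1.70 higher on the log2 scale. With the length of all annotated exons in place of the main transcript, the ratio stayed below 1 in every sample, at 0.207 to 0.228 under DMSO and 0.669 to 0.742 under fostamatinib. The rise of the ratio therefore did not depend on the length, but the change of order did. CDKN1B to CDKN1A, the pair of CIP/KIP inhibitors, measured 2.23, 2.17 and 2.95 under DMSO and 3.05, 3.26 and 3.22 under fostamatinib, with DMSO sample 3 close to the fostamatinib samples. The ratio of CDKN2B to CDKN1B was 0.382, 0.366 and 0.357 under DMSO and 0.163, 0.157 and 0.155 under fostamatinib. CCND1 to CDK4, a cyclin to its kinase, measured 0.374, 0.344 and 0.398 under DMSO and 0.200, 0.192 and 0.200 under fostamatinib.

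**Figure D3:**
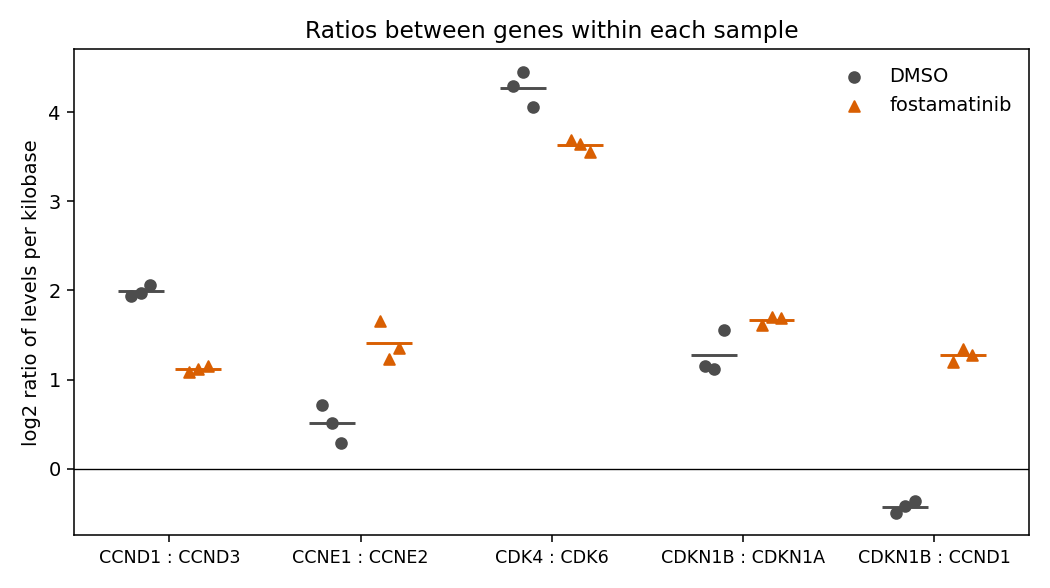
Ratio of pairs of genes within each sample, as log2 of their levels per kilobase of main transcript; circles are DMSO samples, triangles fostamatinib samples, lines group means, and 0 marks equal levels. CCND1 to CCND3 and CDK4 to CDK6 are lower in all fostamatinib samples, and CCNE1 to CCNE2, CDKN1B to CDKN1A and CDKN1B to CCND1 are higher.

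Some of these genes share exon sequence with a gene on the opposite strand. The library kit keeps the strand, but the strand setting of the counting is not given in the sources used here. CDK4 shares 1369 bases (44.2% of its annotated exons) with TSPAN31, which measured 258, 290 and 344 reads under DMSO and 453, 475 and 451 reads under fostamatinib and rose (log2 fold change 0.73, limma adjusted p = 1.26e-09), against the direction of CDK4. CCNE2 shares 1629 bases (37%) with INTS8, at a log2 fold change of -0.06 (limma adjusted p = 0.383). CCND1 shares 497 bases (10.4%) with LTO1, listed as ORAOV1, at a log2 fold change of -0.14 (limma adjusted p = 0.0529). CCND3, CDK6 and CDKN1A share at most 146 bases with noncoding genes that were not analysed here. CDKN2B shares no exon base with its antisense neighbour CDKN2B-AS1, whose mean was 15.7 reads under DMSO and 20 under fostamatinib.

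Around these genes, the remaining G1 kinases, inhibitors and activating factors gave 1 higher and 3 lower of 10 tested, beside 47.8% of all genes called in either direction, with a median log2 fold change of -0.04. Without DMSO sample 2, 6 of the 10 passed. CDKN2C, which encodes the INK4 inhibitor p18, rose by 0.74 (SE 0.096), opposite to CDKN2B. CDC25A, the phosphatase that activates CDK2, fell by 0.87 (SE 0.072). CDC37, a chaperone of kinases including CDK4, fell by 0.22 (SE 0.041), and CDK2, the kinase of the E-type cyclins, fell by 0.20 (SE 0.048). CDK7, CCNH and MNAT1, the subunits of the CDK-activating kinase, and CDKN1C, CDKN2A and CDKN2D did not pass the test. The largest log2 fold change of the list, 1.46, belonged to a gene without a call. Only 9 of the 10 genes passed the authors' minimum of reads in both groups, so a large value here can rest on few reads. A missing call does not mean a level without change. CDKN2A, which encodes p16 and ARF, had a log2 fold change of -0.08 (limma adjusted p = 0.318). CDK3 was not analysed here.

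Genes that control the turnover of these proteins gave 3 higher and 3 lower of 14, beside the same 47.8%, with a median of -0.04. FBXW7, the ubiquitin ligase subunit that recognises cyclin E, rose by 0.48 (SE 0.071). FBXO31, a ligase subunit for cyclin D1, rose by 0.39 (SE 0.072), and DDB1, the adaptor of CUL4 ligases, rose by 0.10 (SE 0.034). DTL, the CUL4 receptor that marks p21 and CDT1 for degradation, fell by 1.73 (SE 0.085). FBXO4, reported as a ligase subunit for cyclin D1, fell by 0.57 (SE 0.153), and CKS1B, the cofactor of SKP2 in the recognition of p27, fell by 0.30 (SE 0.048). SKP2 itself had a log2 fold change of -0.04 (limma adjusted p = 0.504).

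The genes downstream of the G1 kinases moved mostly one way. Of the 13 pocket protein and E2F genes, 10 fell and 1 rose, with a median log2 fold change of -0.42, beside 24.5% of all genes called lower. E2F1, an activating E2F, measured 44.7, 44.9 and 42.9 CPM under DMSO and 15.7, 15.8 and 16.4 CPM under fostamatinib, a fall of 1.47 (SE 0.071). E2F2, another activator, fell by 1.91 (SE 0.171), and E2F7, a repressor that is itself an E2F target, fell by 1.42 (SE 0.087). RBL2, which encodes the pocket protein p130 of resting cells, rose by 0.51 (SE 0.055), at 56.6, 53.3 and 60.9 CPM under DMSO and 81.2, 82.3 and 80.2 CPM under fostamatinib. RB1 (log2 fold change 0.13, limma adjusted p = 0.0590) and TFDP2 (-0.12, limma adjusted p = 0.106) did not pass.

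Of the 22 genes listed as S phase E2F targets, 20 fell and none rose, with a median of -0.86. The list is not limited to replication genes: it also holds CCNA2 and CDK1, whose log2 fold changes were -0.17 and -0.19, and MKI67. Of all genes tested, 24.5% were called lower and 23.3% higher. GINS2, MCM5 and MCM6, parts of the replicative helicase, had log2 fold changes of -1.79 (SE 0.112), -1.55 (SE 0.071) and -1.39 (SE 0.049). MKI67, a marker of cycling cells outside G0, measured 448, 457 and 454 CPM under DMSO and 457, 465 and 475 CPM under fostamatinib, a log2 fold change of 0.04 (limma adjusted p = 0.373).

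The p53 and FOXO lists were set beside CDKN1A and CDKN1B, as textbook targets of these factors. Of 17 p53 targets besides CDKN1A, 6 rose and 7 fell, 13 in all, beside 23.3% of all genes called higher, 24.5% lower and 47.8% in either direction, with a median of 0.07. BTG2, an antiproliferative gene, rose by 0.68 (SE 0.104), CCNG1, cyclin G1, by 0.45 (SE 0.050), and TP53I3 by 0.42 (SE 0.087). GADD45A, a stress gene, fell by 2.02 (SE 0.064), PLK3, a polo-like kinase, fell by 1.73 (SE 0.182), and GDF15, a secreted stress factor, fell by 0.66 (SE 0.062). The called genes went in both directions, and the value of CDKN1A lay between them. FAS was not analysed here.

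Of 12 genes listed as FOXO factors or targets, 7 rose and 4 fell, 11 in all, with a median of 0.27. The shares over all genes were 23.3% called higher, 24.5% lower and 47.8% in either direction. FOXO1 rose by 0.88 (SE 0.077), FOXO4 by 0.82 (SE 0.196) and BCL6, a transcriptional repressor, by 0.36 (SE 0.069). SOD2, the mitochondrial superoxide dismutase and also a known NF-kB target, fell by 1.70 (SE 0.032), FOXO3 fell by 0.44 (SE 0.054) and KLF6 fell by 0.42 (SE 0.045). All of the changes named from these lists passed limma's test, with adjusted p values from 1.68e-30 for SOD2 to 0.0106 for DDB1. FOXO6 was not analysed here.

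**Figure D4:**
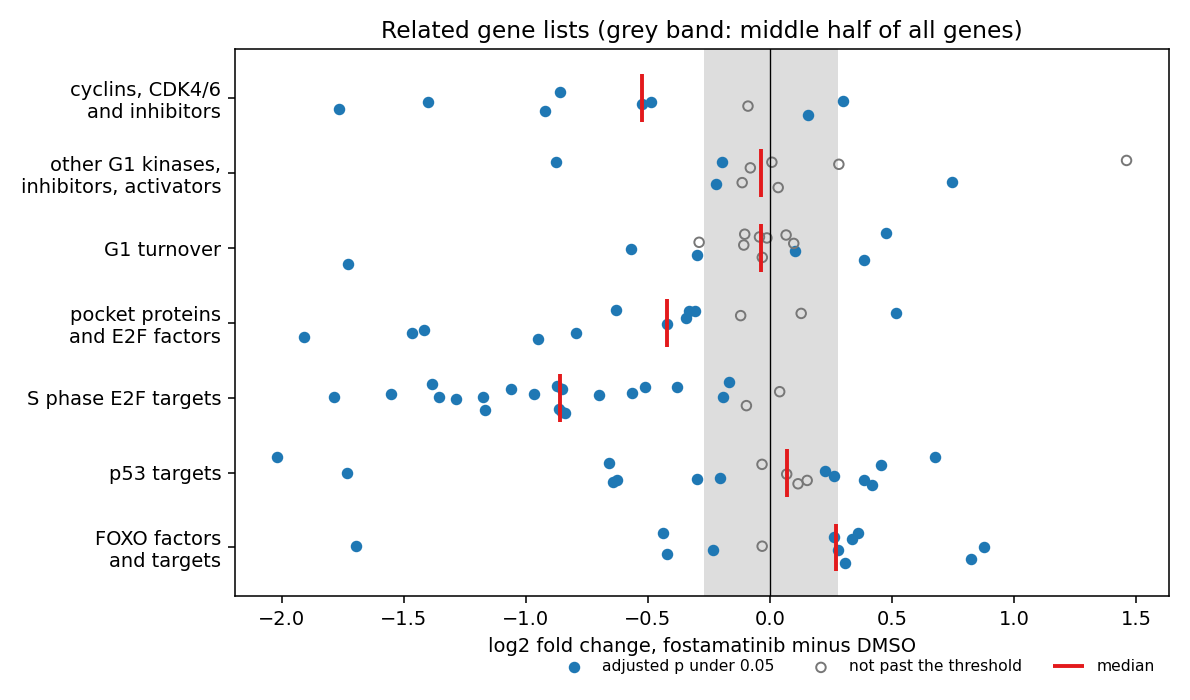
Log2 fold change of every gene tested in the G1 gene set and in 6 related lists; filled points passed a limma adjusted p of 0.05, open points did not, red bars are list medians and the grey band spans the quartiles of all genes. The S phase list (median -0.86) and the pocket protein and E2F list (-0.42) lie to the left, as the G1 gene set does (-0.53), while the other lists have medians between -0.04 and 0.27.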

How the data were processed

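RNA-seq of 3 fostamatinib and 3 DMSO samples of Huh7SR cells was used, with groups and replicate numbers taken from the sample labels. The authors made poly(A)-selected directional libraries, aligned with HISAT to the hg19 build, and used featureCounts with GENCODE gene models. Their filter took out a gene when 2 or more of the 3 samples had under 5 reads, in both conditions alike, and TMM scaling followed. The deposited values are log2 CPM, computed by the authors with 0.5 added to each count. Reads were recovered from them, and 100% of the values lay within 0.05 of a whole number. One gene listed 7 times with the same values was used once.

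The test was limma 3.58.1 under R 4.3.3 (lmFit, eBayes with a mean-variance trend, two-sided) on all 16305 genes, with treatment as the only term. It shares variance across genes, with a median of 33.9 degrees of freedom, of which 4 came from a gene's own samples. The size of an adjusted p depends on this. For CCND1, limma gave an adjusted p of 2.35e-23 here, 2.12e-04 without the trend and 2.50e-186 with a replicate block. A gene was called changed at a Benjamini-Hochberg adjusted p under 0.05. The script was tested on simulated data. With 13303451 to 15272737 reads per sample, genes with few reads carry the larger errors. The members and lists were chosen with earlier results of these data known. All members were named. From each related list, up to 3 rises and 3 falls were named, the largest among genes that passed the test with 50 or more reads on average in the higher group and no overlap between groups. Other genes without a call are named as contrasts and were chosen after their values were seen. From the marker lists, 5 hepatocyte markers and markers of other cell types over 50 reads were named. Levels per kilobase used the main (canonical) transcript, with the length of all exons as an alternative chosen after seeing the data. Gene positions are GRCh37 (hg19), and promoters are from RefSeq on GRCh38.p14. Python 3.11.15 (pandas 2.3.3, numpy 2.4.6) was used for the tables. The alternatives tried were limma-voom, no trend, RLE size factors, library size alone, 2 stricter filters, pseudocounts of 1 and 0.125, a replicate block, each sample left out in turn and a test against a 1.2-fold change.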

Additional observations from a re-analysis of the deposited data

How the results depend on the processing

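In 16 alternative settings, 259 of 272 values kept their direction and their side of the threshold or, for counts, stayed within 1.5 times. No value reversed. Against a 1.2-fold change (limma treat), the genes changed numbered 2977, and the calls in the lists numbered 2 for the other G1 kinases, inhibitors and activators, 2 for turnover, 7 for pocket proteins and E2F factors, 7 for p53 targets and 5 for FOXO factors and targets; that test asks for a larger change by construction. CDK6, at 0.16, no longer passed there (limma adjusted p = 1.0) or without a variance trend (limma adjusted p = 0.180), and CDKN1B, at 0.30, no longer passed the 1.2-fold test (limma adjusted p = 0.651). With each sample left out in turn, CDK6 ranged from 0.092 to 0.23 and CDKN1A from -0.18 to -0.033, the genes changed from 6958 to 7480 and the members changed from 7 to 9. The cause was not tested. The replicate numbers did not pair the samples: deviations of same-numbered samples correlated at 0.04, -0.02 and 0.04, and the replicate block gave 7977 genes changed and changed no call of a member. TMM, RLE and library size alone placed the median log2 fold change of all genes at 0.0015, 0.0052 and -0.0096. A run without any filter on low counts was not made, since the values used here were already filtered. Depth limits CCNE2 most, with 54 to 63 reads after fostamatinib.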

Other observations

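Cyclins and cyclin-dependent kinases outside the set above were picked by symbol after the data had been seen and are given as a description. Of 37 such genes (20 cyclins and 17 kinases), 10 rose, 11 fell and 16 did not pass limma's test, with a median log2 fold change of 0.01. Of all genes tested, 23.3% were called higher, 24.5% lower and 47.8% in either direction. The mitotic cyclins CCNB1 and CCNB2, partners of CDK1, rose by 0.38 (limma adjusted p = 3.60e-10) and 0.42 (limma adjusted p = 7.68e-09), while CCNA2, cyclin A2, fell by 0.17 and CDK1 by 0.19. CCNG2, an atypical cyclin, rose by 0.44, as did CDK10. CCNJ fell by 0.61 and CCNYL1 by 0.44. CDK19, a kinase of the Mediator complex, rose by 0.26.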
